A study of Mus musculus with 8 samples.

Results

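The genes described here make and break down coenzyme A (CoA): the pantothenate kinase genes Pank1, Pank2, Pank3 and Pank4, the later synthesis genes Ppcs, Ppcdc and Coasy, the CoA hydrolase genes Nudt7 and Nudt19, and the pantetheinase gene Vnn1. They were found as every non-control probe carrying 1 of these names, which gave 10 genes with 12 probes out of 21742 tested genes and 39429 probes on the array, and all 12 probes passed the filter on dim probes. The set was chosen from the 6-week log2 ratio of Pank1, which had been seen to lie below 0. The 6-week values of the 10 genes are therefore given as a description, with no p-value. Counts of these genes past the threshold at 6 weeks describe a setting and are no test of the set. The difference between ages, tested for the 9 genes other than Pank1, also uses these 6-week values. Brown adipose tissue of Prdm16 knockout mice was compared with that of wild-type mice at 6 weeks and at 11 months of age, on 4 2-colour arrays per age that the labels call biological replicates. Each array carried 1 knockout and 1 wild-type RNA of the same age, and the dyes were exchanged on 2 arrays of each age. The deleted gene, Prdm16, codes for a zinc-finger protein that drives the brown fat programme of transcription. For the knockout allele, any Cre driver, the strain and the sex of the mice, nothing was stated in the sources used here. Values are log2 of the knockout signal over the wild-type signal, and fitted values carry the standard error of a limma model of all 8 arrays (n = 4 arrays per age), with p-values adjusted over all genes by the Benjamini-Hochberg method and a gene called at an adjusted p below 0.05.

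Coenzyme A carries acyl groups through fatty acid oxidation, the tricarboxylic acid cycle and lipid synthesis, all of which run at high rates in brown fat. Cells build it from pantothenate (vitamin B5): pantothenate kinases carry out the first and rate-limiting step and are held back by acyl-CoAs, and the enzymes encoded by Ppcs, Ppcdc and Coasy then add cysteine, remove its carboxyl group and attach the nucleotide part. Nudt7 and Nudt19 encode peroxisomal hydrolases that split CoA, and Vnn1 encodes an ectoenzyme that frees pantothenate from pantetheine.

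Which transcript each value reports is fixed by the probe, so the probe sequences are shown first, 5′ to 3′, as the scanner tables give them. The first set is of Pank1, Pank3 and Pank4, whose probes had to tell related genes apart, and each is the first 30 bases of a 60-base probe.
Pank1: ggtcgagatatcagttagaaataatggtct
Pank3: gtccttagactgttcaaatggaatatggtt
Pank4: gggacacccaacccagcatttgtcctgtgg
Their positions on mm9, the build of the array design, are chr19:34885801-34885860 (minus strand) for Pank1, chr11:35599745-35599804 for Pank3 and chr4:154354923-154354982 for Pank4. In the 3 pairs of these probes, the longest run of bases that the full probes shared was 5 to 6 bases. The probes were compared only with each other and not with the transcripts of the related genes, so their specificity was not tested.

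The second set is of the 2 Nudt7 probes and the Nudt19 probe, whose values are set against each other below. The first Nudt7 probe is whole and is annotated to NM_024437. The second, to NM_024446, is the first 30 bases, as is the Nudt19 probe.
Nudt7 first: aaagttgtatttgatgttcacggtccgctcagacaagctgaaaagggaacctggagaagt
Nudt7 second: ctaaaagtctttcaaaactggaaaaatgca
Nudt19: cctccaggaaggtcccttgtttcttgtgtc
The first Nudt7 probe lies at chr8:116660355-116671817, a span of 11463 bases for 60 bases of probe, so it joins sequence that is apart in the genome. The second lies further along the same strand at chr8:116676071-116676130. The Nudt19 probe, at chr7:36332321-36332380 on the minus strand, was printed in 10 replicate spots. The 2 Coasy probes end at the same base of chromosome 11 (chr11:100947874-100947933 and chr11:100947876-100947933) and share 58 bases, so they are nearly 1 measurement. Ppcs was read at chr4:119091138-119091194, Ppcdc at chr9:57261009-57261068 and Vnn1 at chr10:23624524-23624583. The scanner tables give a position and no exon or intron for these probes.

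Each array carried 43020 non-control spots, 61.2% to 68.2% of which lay well above background in each channel, and none was saturated. The Prdm16 probe gave -0.58 ± 0.15 at 6 weeks (adjusted p = 0.042) and -0.50 ± 0.15 at 11 months (adjusted p = 0.0372), and its place relative to the deleted part was not stated, which makes it a weak check of the labels. Both calls ended with median centring in place of loess (adjusted p = 0.238 and 0.35) and without a dye coefficient (adjusted p = 0.0843 and 0.077). The first also ended with the scanner's log ratio, the deposited log2 table and no filter on dim probes (adjusted p = 0.0757, 0.0612 and 0.0512). Leaving out array 1, 3 or 4 of 6 weeks or array 1 or 3 of 11 months ended the first (adjusted p = 0.0536 to 0.154), and array 1, 3 or 4 of 11 months or array 1 or 4 of 6 weeks the second (adjusted p = 0.0523 to 0.155). Of 10 brown adipocyte markers, all 10 fell at 11 months (list median -2.78), among them Ucp1, the uncoupling protein of thermogenesis, at -4.05 ± 0.44 (16.6-fold lower, adjusted p = 0.000419), or -3.30 without 11-month-old array 3. None of the 10 was called by limma at 6 weeks, when the list median was -0.53 and 3 of them had an unadjusted p below 0.05. The intensities of the brown markers were also summed, so that the brightest markers weighed most. The log2 of this sum was 19.03 to 19.84 in knockout and 19.61 to 20.14 in wild type at 6 weeks. At 11 months it was 16.14 to 18.53 against 20.41 to 20.83. Of 8 general adipocyte markers 5 rose at 6 weeks and 7 at 11 months, and of 6 white adipocyte markers 4 and 6 did. Of all genes, 9.18% were called higher at 6 weeks and 17.9% at 11 months, and 16.8% were called lower at 11 months. The median ratio of the general adipocyte list at 6 weeks was -0.13 and 0.28 in the arrays with knockout RNA in Cy3. In those with knockout RNA in Cy5 it was 0.88 and 1.03. None of 14 skeletal muscle markers was called by limma at either age (1 and 0 at an unadjusted p below 0.05), but the list's median ratio ran from -3.40 to 2.94 among the 6-week-old arrays and from -1.13 to 1.72 among the 11-month-old arrays. The share of these cell types in the tissue was not measured, and their part in the results below was not tested.

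Pank1, the kinase gene that stood lowest, fell sharply at 11 months. The 11-month-old arrays gave log2 ratios of -2.72, -2.83, -2.79 and -2.29. The 6-week-old arrays, in the same order of replicates 1 to 4, gave -1.76, -0.68, -0.90 and -0.98. All 4 ratios of 11 months were below 0, as they were for 25.3% of all genes. The fitted value at 11 months was -2.66 ± 0.17 (6.31-fold lower, adjusted p = 5.41e-05). At 6 weeks it was -1.08 ± 0.17 (2.12-fold lower), the value that led to the choice of the set. The 11-month-old value minus the 6-week-old value was -1.58 ± 0.24, given without a test for the same reason. It was -0.78 with array 1 as the only 6-week-old array (without arrays 2, 3 and 4, those with the largest shift of the muscle list). In bulk tissue, fewer cells of a type and less RNA per cell cannot be told apart. The ages were run as separate batches on separate slides, so age and batch cannot be told apart in any difference between ages given here.

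On the normalized log2 intensity scale, the Pank1 probe stood at 12.39 to 12.80 in wild type and 11.03 to 11.78 in knockout at 6 weeks. At 11 months it stood at 12.28 to 12.72 in wild type and at 9.45 to 10.44 in knockout. The genotypes did not overlap at 11 months, as for 25.8% of all genes. At 11 months Pank1 ranked 18th from the lowest of the 21742 genes (0.0782% of genes lay lower), against 142nd at 6 weeks (0.649% lower).

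Pank3, which encodes another active pantothenate kinase, moved the other way. Its ratios were 2.35, 1.78, 1.09 and 1.39 in the 11-month-old arrays. In the 6-week-old arrays they were 1.25, 1.19, 0.83 and 0.60. Every array lay above 0 (25% of all genes in the 4 11-month-old arrays), and the ranges of the ages overlapped. Pank3 rose at 11 months by 1.66 ± 0.20 (3.15-fold, adjusted p = 0.000603), and its 6-week value was 0.97 ± 0.20 (1.95-fold higher). The difference between ages was 0.69 ± 0.28 and did not pass (adjusted p = 0.126). It passed in 2 of 19 alternatives, 1 of them a dye coefficient for each age (adjusted p = 0.0176). With array 1 as the only 6-week-old array, the difference was -0.0107. Its log2 intensity was 9.54 to 10.01 in wild type and 10.45 to 11.01 in knockout at 6 weeks. At 11 months it was 10.27 to 11.11 against 12.05 to 12.62. The genotypes overlapped at neither age, as for 19.5% of all genes at 6 weeks and 25.8% at 11 months. Of all genes, 99.1% lay below Pank3 at 11 months and 98.6% at 6 weeks. Pank1 and Pank3 kept their 11-month calls under all 20 alternatives tried, with values from -3.23 to -2.44 for Pank1 and from 1.41 to 1.88 for Pank3.

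**Figure D1:**
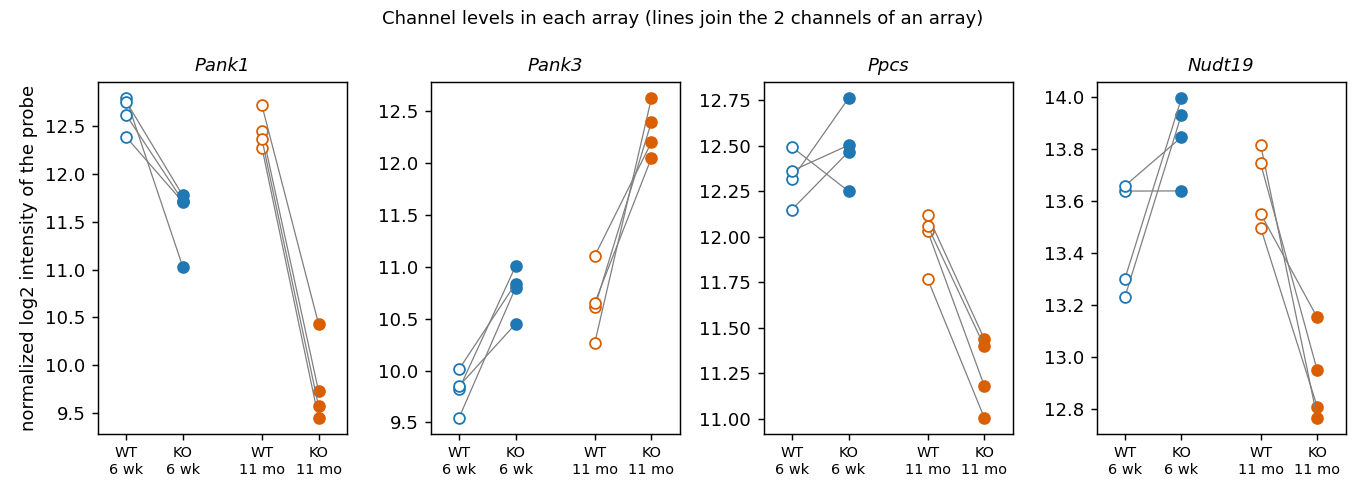
Normalized log2 intensity of the probes of Pank1, Pank3, Ppcs and Nudt19 (vertical axes, each on its own range that does not start at 0) in wild type (WT, open points) and knockout (KO, filled points) at 6 weeks (blue) and 11 months (orange), with a line joining the 2 channels of each of the 4 arrays per age. Pank1 knockout levels reach 9.45 at 11 months while Pank3 knockout levels reach 12.62. The 11-month-old genotypes do not overlap in any of the 4 panels, as for 25.8% of all genes.

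Pank2, another pantothenate kinase gene, gave 6-week-old ratios of 0.91, 0.75, 0.41 and 0.19, all above 0. The 11-month-old arrays gave 0.11, 0.12, 0.02 and -0.03. The fitted values were 0.56 ± 0.10 at 6 weeks and 0.06 ± 0.10 at 11 months (adjusted p = 0.70, 95% interval -0.18 to 0.29). The difference between ages was -0.51 ± 0.14 (adjusted p = 0.0444). That call ended in 11 of 19 alternatives, among them leaving out any single array other than 6-week-old array 4 (adjusted p = 0.0609 to 0.117).

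Pank4 encodes a family member that lacks kinase activity. Its 11-month-old ratios were -0.37, -0.32, -0.45 and -0.14, after -0.96, -0.50, -0.33 and -0.36 at 6 weeks. All 8 arrays lay below 0 and the ages overlapped. The 6-week value was -0.54 ± 0.10, and the fall at 11 months was by 0.32 ± 0.10 (1.25-fold, adjusted p = 0.0398). The 11-month call ended in 7 of 20 alternatives: leaving out any 6-week-old array except the first (adjusted p = 0.0531, 0.0544 and 0.0574 in order), any 11-month-old array except the fourth (adjusted p = 0.16, 0.148 and 0.116), or centring on the median (-0.09, adjusted p = 0.631). The difference between ages was 0.22 ± 0.14 (adjusted p = 0.325).

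**Figure D2:**
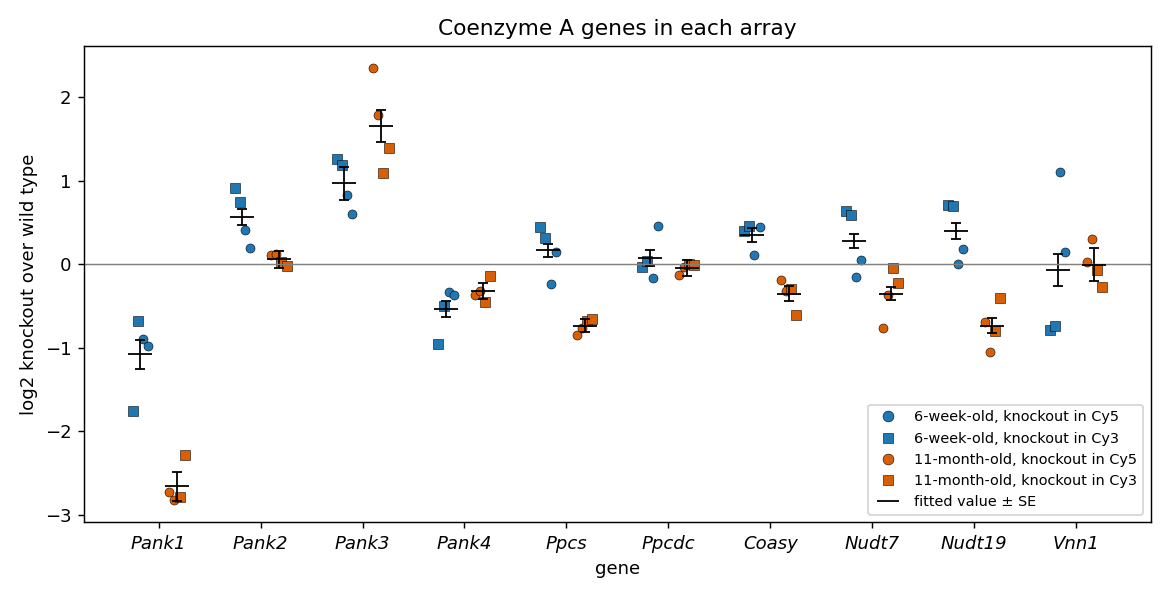
Log2 ratio of knockout over wild type (vertical axis) for the brightest probe of each of the 10 genes (horizontal axis) in each array, at 6 weeks (blue) and 11 months (orange), with circles for arrays that carried the knockout RNA in Cy5 and squares for Cy3, and bars for the fitted value ± SE. Pank1 and Pank4 lie below 0 and Pank3 above 0 in all 8 arrays. Ppcs, Ppcdc (up to -0.0005), Coasy, Nudt7 and Nudt19 lie below 0 in all 4 arrays of 11 months, as do 25.3% of all genes.

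The regions before the start sites of Pank1 and Pank3 are shown because these related genes moved in opposite directions. They are the 250 bases upstream of each RefSeq start in the table built on GRCm38.p6, in the direction of the gene, with motif matches in capitals. Pank1 has 2 starts, at the ends of chr19:34877918-34878167 and chr19:34879456-34879705, both on the minus strand, and Pank3 has 1, after chr11:35769245-35769494 on the plus strand.
Pank1 first start: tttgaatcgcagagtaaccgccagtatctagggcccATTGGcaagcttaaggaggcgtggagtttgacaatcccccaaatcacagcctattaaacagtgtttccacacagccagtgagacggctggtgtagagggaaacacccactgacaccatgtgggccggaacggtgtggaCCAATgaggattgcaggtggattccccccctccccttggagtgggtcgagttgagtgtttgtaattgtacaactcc
Pank1 second start: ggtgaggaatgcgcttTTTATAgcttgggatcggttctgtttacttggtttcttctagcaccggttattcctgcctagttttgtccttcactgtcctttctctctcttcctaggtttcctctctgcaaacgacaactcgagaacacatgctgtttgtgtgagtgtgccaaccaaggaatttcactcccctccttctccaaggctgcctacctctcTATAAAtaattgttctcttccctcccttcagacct
Pank3: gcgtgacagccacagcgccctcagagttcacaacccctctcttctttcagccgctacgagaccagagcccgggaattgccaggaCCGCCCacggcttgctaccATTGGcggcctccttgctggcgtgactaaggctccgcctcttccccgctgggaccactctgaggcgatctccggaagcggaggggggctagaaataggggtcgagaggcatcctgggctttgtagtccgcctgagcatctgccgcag
Each motif was searched on both strands: the nuclear receptor core site (AGGTCA), the CCAAT box (its 5 letters), the TATA box (TATAAA), the GC box (GGGCGG), the E box (CACGTG), the core of the cyclic AMP response element (TGACG) and the NRF1 site. Overlapping matches were kept. The first Pank1 window held 2 matches to CCAAT, a motif that 33.8% of 32817 promoter windows of the same length held. The second held 2 to TATAAA (12.4% of windows), 1 of them 29 bases before the start. The Pank3 window held 1 CCAAT match and 1 GGGCGG match (32.7% of windows). None of the 3 windows held AGGTCA, which 14.0% of all windows held. Among the other genes of the set with an entry (8 of the 10 genes, 12 windows in all), the Ppcs window held 1 AGGTCA match. These matches describe letters in these windows and no binding was measured.

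Ppcs, whose product joins cysteine to phosphopantothenate, fell at 11 months. Its 11-month-old ratios were -0.85, -0.76, -0.68 and -0.66, a narrow range wholly below 0. At 6 weeks they were 0.44, 0.32, -0.24 and 0.14, with no common sign. The fitted value at 11 months was -0.74 ± 0.08 (1.67-fold lower, adjusted p = 0.000374), against 0.16 ± 0.08 at 6 weeks. The ages differed by -0.90 ± 0.11 (adjusted p = 0.00297). Its log2 intensity at 11 months was 11.01 to 11.44 in knockout and 11.77 to 12.12 in wild type. With median centring the 11-month value was -0.52 and the call ended (adjusted p = 0.0685).

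Ppcdc, the decarboxylase gene of the pathway, gave no call. Its ratios ran from -0.16 to 0.46 in the 6-week-old arrays and from -0.12 to -0.0005 in the 11-month-old arrays. The fitted 11-month value was -0.04 ± 0.10 (adjusted p = 0.768, 95% interval -0.27 to 0.18), and the difference between ages was -0.12 ± 0.14 (adjusted p = 0.575). Its probe was dim, well above background in 13 of 16 channel measurements, 3 of 4 in knockout and 2 of 4 in wild type at 11 months.

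Coasy encodes the bifunctional synthase of the last steps, and its probe was bright. The ratios were -0.19, -0.32, -0.30 and -0.60 at 11 months and 0.40, 0.45, 0.11 and 0.45 at 6 weeks. The ages lay on opposite sides of 0 in every array. Coasy fell at 11 months by 0.35 ± 0.09 (1.28-fold, adjusted p = 0.0163), its 6-week value was 0.35 ± 0.09, and the ages differed by -0.71 ± 0.12 (adjusted p = 0.00927). The overlapping probe gave -0.37 ± 0.08 at 11 months (adjusted p = 0.0107). Leaving out 11-month-old array 2 or 4 ended the 11-month call (adjusted p = 0.0603 and 0.0621). Median centring did too (-0.22, adjusted p = 0.469).

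Nudt19, a CoA hydrolase gene, fell at 11 months after lying at or above 0 at 6 weeks. The 11-month-old ratios were -0.69, -1.05, -0.80 and -0.40, and the 6-week-old ratios were 0.70, 0.70, 0.0005 and 0.19. The 10 replicate spots of the probe differed little within an array, with an SD of 0.01 to 0.04. The fitted value was -0.74 ± 0.10 at 11 months (1.66-fold lower, adjusted p = 0.000908) and 0.40 ± 0.10 at 6 weeks. The difference between ages, -1.13 ± 0.13 (adjusted p = 0.00278), was the largest of the 9 genes for which it was tested. Its log2 intensity at 11 months was 12.76 to 13.15 in knockout and 13.50 to 13.82 in wild type. With median centring the 11-month value was -0.55 and the call ended (adjusted p = 0.107).

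Nudt7, the other peroxisomal hydrolase gene, fell at 11 months on both probes. The brighter one, annotated to NM_024446, gave -0.76, -0.37, -0.04 and -0.23 in the 11-month-old arrays and 0.63, 0.59, -0.16 and 0.05 in the 6-week-old arrays. Its fitted values were -0.35 ± 0.08 at 11 months (1.28-fold lower, adjusted p = 0.0127) and 0.28 ± 0.08 at 6 weeks, and the ages differed by -0.63 ± 0.12 (adjusted p = 0.0108). The probe that joins separate genomic sequence gave -0.27 ± 0.08 at 11 months (adjusted p = 0.04) and 0.03 ± 0.08 at 6 weeks, and its difference between ages did not pass (-0.30, adjusted p = 0.12). The brighter probe's ratio was lower by 0.55 where the knockout RNA was in Cy5, and without the dye coefficient in the model its 11-month call ended (adjusted p = 0.127). Leaving out 11-month-old array 1 or 4 also ended it (adjusted p = 0.0672 and 0.0551), as did median centring (-0.17, adjusted p = 0.531).

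Vnn1, the pantetheinase gene, gave no call and the widest spread at 6 weeks. Its 6-week-old ratios were -0.79, -0.74, 1.11 and 0.15, and its 11-month-old ratios were 0.03, 0.30, -0.06 and -0.28. The arrays with knockout RNA in Cy5 gave the higher ratios at both ages, by 0.86 in the fit. The 11-month value was -0.0040 ± 0.19 (adjusted p = 0.99), with a 95% interval of -0.45 to 0.44 that leaves room for a change of that size. The difference between ages was 0.06 ± 0.27 (adjusted p = 0.893).

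Across the 10 genes at 11 months, 1 rose (Pank3), 6 fell (Pank1, Pank4, Ppcs, Coasy, Nudt7 and Nudt19) and 3 were not called, where 34.7% of all genes were called in either direction, 17.9% higher and 16.8% lower. By probes, 9 of 12 were called, against 33.8% of all kept probes. The median of the 10 genes was -0.34 and that of all genes 0.01. Knockout and wild-type levels at 11 months did not overlap on the brightest probe for 6 of the 10 genes, against 25.8% of all genes. These genes were Pank1, Pank3, Ppcs, Coasy, Nudt7 and Nudt19. On the other Nudt7 probe the levels overlapped, at 12.03 to 12.24 in knockout and 12.23 to 12.44 in wild type. Under median centring 2 of the 7 calls at 11 months were left, those of Pank1 and Pank3. That setting moved the median of all genes from 0.01 to 0.09 and the share of higher genes among all calls from 51.7% to 70.8%, and at 6 weeks from 56.7% to 70.0%.

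**Figure D3:**
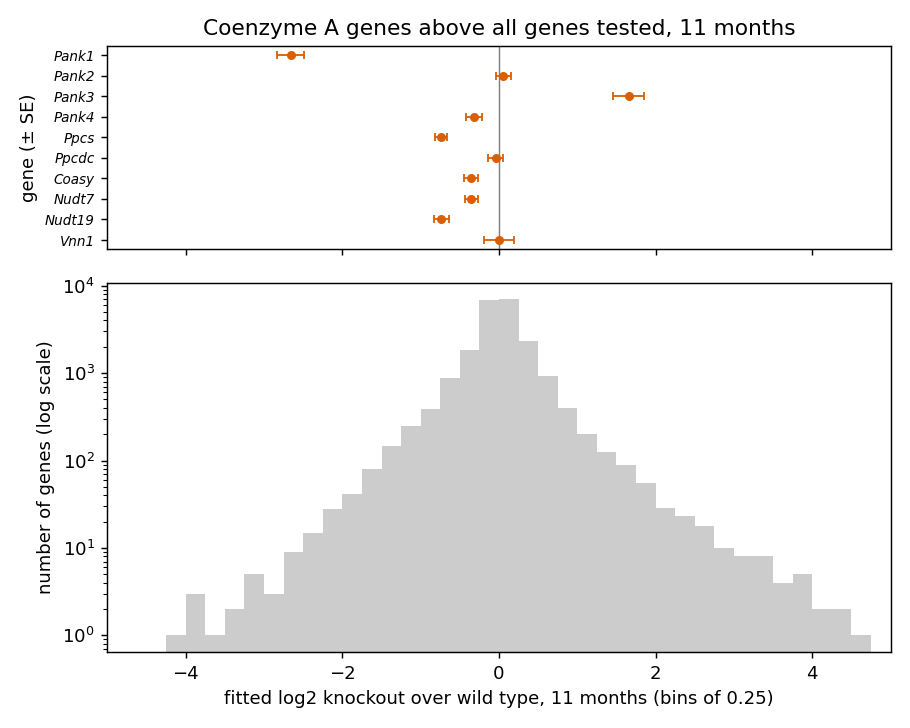
Top, fitted log2 ratio of knockout over wild type at 11 months (horizontal axis) for each of the 10 genes with its SE. Bottom, the number of genes (vertical log axis) among the 21742 tested in bins of 0.25 on the same horizontal axis. Pank1 at -2.66 and Pank3 at 1.66 lie in the thin tails of the distribution, and the other 8 genes lie between -0.74 and 0.06.

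The knockout-to-wild-type ratio was lower at 11 months than at 6 weeks for 5 of the 9 genes other than Pank1, namely Pank2, Ppcs, Coasy, Nudt7 and Nudt19, and higher for 0 of them by limma (1, Pank3, at an unadjusted p below 0.05), where 18.2% of all genes were called for this difference (8.46% higher and 9.71% lower).  Without 6-week-old arrays 2, 3 and 4, those with the largest shift of the skeletal muscle list, 1 array was left at 6 weeks, assumed to vary like the others, and the calls of Pank2 and Ppcs remained. The calls of Coasy, Nudt7 and Nudt19 ended (adjusted p = 0.0784, 0.116 and 0.0625) at values of -0.85, -0.77 and -1.30, no smaller in size than with all arrays. With median centring 0 calls were left by limma, at values of -0.42 for Pank2, -0.92 for Ppcs, -0.82 for Coasy, -0.70 for Nudt7 and -1.19 for Nudt19 (adjusted p = 0.0876 to 0.412).

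The other genes of CoA uptake, transport, transfer and breakdown gave a mixed picture. They were listed with the taurine-forming genes Ado, Cdo1 and Csad, which were not called by limma at either age. Of these 12 genes, 3 rose and 4 fell at 11 months (median -0.13, with 34.7% of all genes called). At 6 weeks 1 rose and 1 fell (median 0.03), a share near that of all genes (16.2% called, 9.18% higher and 7.01% lower). At 11 months Slc5a6, which encodes the sodium-dependent vitamin transporter that takes up pantothenate, rose by 1.54 ± 0.20 (2.91-fold, adjusted p = 0.000835). Vnn3, a relative of Vnn1, rose at both ages, by 0.81 ± 0.16 at 6 weeks (adjusted p = 0.0179) and by 1.36 ± 0.16 at 11 months (adjusted p = 0.000642; 2.67 with the scanner's log ratio). Of the carriers that move CoA across organelle membranes, 2 fell at 11 months, Slc25a42 of mitochondria, at -1.36 ± 0.32 (adjusted p = 0.0136), and Slc25a17 of peroxisomes, at -1.003 ± 0.21 (adjusted p = 0.00801). The 11-month-old ratios of Slc25a42 were -1.04, -1.12, -2.77 and -0.49, and leaving out single arrays gave fitted values up to -0.91. Nudt8, which encodes a mitochondrial CoA hydrolase, fell at 6 weeks by 0.72 ± 0.17 (adjusted p = 0.0297) and stood at -0.88 ± 0.17 at 11 months (adjusted p = 0.00608). The differences between ages passed for Slc5a6 (1.22, adjusted p = 0.0233) and Slc25a17 (-1.42, adjusted p = 0.0169), and for 0 of the others by limma, with 3 of those 10 at an unadjusted p below 0.05. The 6-week calls of Vnn3 and Nudt8 and the 11-month calls of Slc25a42 and Slc25a17 ended with median centring (adjusted p = 0.0597, 0.12, 0.0562 and 0.086). Leaving out 6-week-old array 1, 2 or 4 also ended the call of Vnn3 (adjusted p = 0.0879, 0.0593 and 0.062), 6-week-old array 1, 2 or 3 that of Nudt8 (adjusted p = 0.0655, 0.0633 and 0.0892), and 11-month-old array 1 or 2 that of Slc25a42 (adjusted p = 0.0535 and 0.0599).

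**Figure D4:**
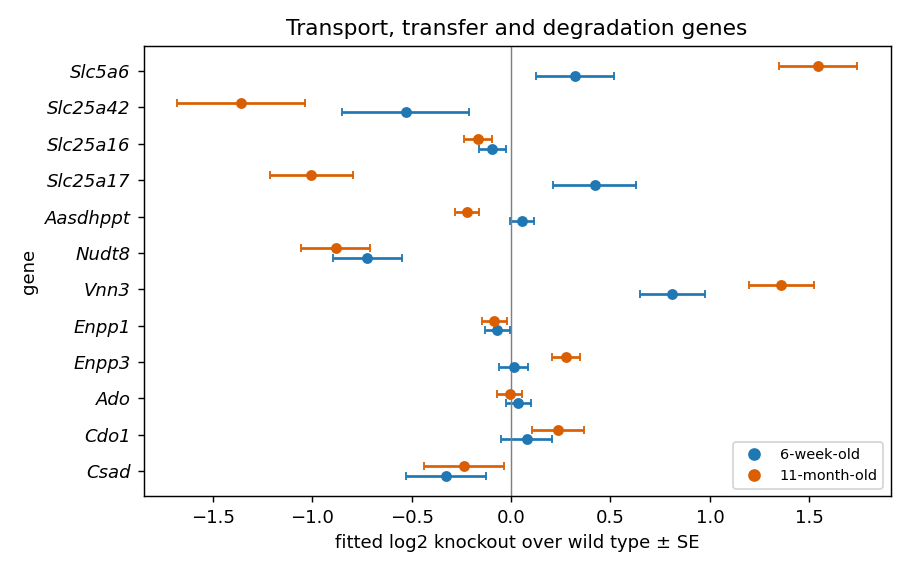
Fitted log2 ratio of knockout over wild type ± SE (horizontal axis) at 6 weeks (blue) and 11 months (orange) for the 12 other genes (vertical axis, n = 4 arrays per age). They are genes of CoA transport, transfer and degradation, with the taurine-forming genes Ado, Cdo1 and Csad. Slc5a6 at 1.54 and Vnn3 at 1.36 are the highest values at 11 months, and Slc25a42 at -1.36 is the lowest.

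Nudt7 and Nudt19 act in peroxisomes, and 27 other peroxisomal genes were measured beside them. At 11 months 3 rose and 10 fell (median -0.24, with 34.7% of all genes called), and at 6 weeks 6 rose and 5 fell (median 0.10, with 16.2% called). The largest falls at 11 months were of Phyh, the phytanoyl-CoA hydroxylase gene, by 1.60 ± 0.18 (3.03-fold, adjusted p = 0.00052). Ech1, an enoyl-CoA isomerase gene, stood at -1.47 ± 0.22, Amacr, a racemase gene, at -1.16 ± 0.15 and Abcd3, an acyl-CoA transporter gene, at -1.04 ± 0.19 (adjusted p = 0.00175, 0.000825 and 0.00401). At 6 weeks Phyh also fell, by 0.90 ± 0.18 (adjusted p = 0.0184). Abcd2, another acyl-CoA transporter gene, rose at 6 weeks by 1.02 ± 0.15, Ehhadh, the bifunctional enzyme gene, by 0.96 ± 0.24, and Acaa1b, a thiolase gene, by 0.94 ± 0.19. With median centring 5 of the 27 genes were called at 11 months, in place of 13. That setting ended the 11-month call of Abcd3 (adjusted p = 0.0846) and the 6-week calls of Ehhadh and Phyh (adjusted p = 0.102 and 0.152). The scanner's log ratio also ended the 6-week call of Ehhadh (adjusted p = 0.0629). The 6-week calls of Ehhadh (leaving out 6-week-old array 1, 2 or 3, or array 1 of 11 months), Acaa1b (without 6-week-old array 2, 3 or 4) and Phyh (without 6-week-old array 1, 2 or 3) ended with adjusted p from 0.05 to 0.152.

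Of 17 genes of acyl-CoA synthetases and other enzymes that take up free CoA, 16 were measured: 6 rose and 1 fell at 6 weeks (median 0.25, with 16.2% of all genes called), and 2 rose and 6 fell at 11 months (median -0.08, with 34.7% called). The difference between ages was called for 6 of the 16, all lower, with 18.2% of all genes called. At 6 weeks Acly, which makes cytosolic acetyl-CoA from citrate, rose by 2.39 ± 0.45 (5.26-fold, adjusted p = 0.0142), Acss2, which makes it from acetate, by 1.66 ± 0.29 (3.15-fold, adjusted p = 0.0112), and Aacs, which activates acetoacetate, and Slc27a1, which activates long-chain fatty acids, rose 2.15-fold and 2.14-fold (adjusted p = 0.00615 and 0.000288). At 11 months Acss1, the mitochondrial acetyl-CoA synthetase gene, fell by 2.90 ± 0.20 (7.46-fold, adjusted p = 7.17e-05). Acsl5, Slc27a2 and Acsm3, which activate long-chain, very long-chain and medium-chain fatty acids, fell at 11 months, to -2.74 ± 0.35, -2.62 ± 0.42 (-2.01 without 11-month-old array 3) and -1.98 ± 0.27. The 6-week count was 7 of 16 with all arrays and 3 of 16 with 6-week-old array 1 alone at that age, where the values were larger (3.67 for Acly, 2.5025 for Acss2 and 1.54 for Aacs). Leaving out 6-week-old array 1 ended the calls of Acly and Acss2 (adjusted p = 0.0741 and 0.0575), and leaving out 6-week-old array 2 that of Acly (adjusted p = 0.0625). The 6-week-old ratios of Acss2 were 2.97 and 2.44 with the knockout RNA in Cy3, and 0.48 and 0.74 with it in Cy5. Without a dye coefficient in the limma model the 6-week call of Acss2 ended (adjusted p = 0.0517).

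The genes whose log2 ratios over the 8 arrays were most like those of Pank1, by Pearson correlation after removal of the fitted dye coefficient among 21648 genes with a value in every array, were Timm44 (0.999), Rfxank (0.995), Uqcrc2 (0.993), Atp5d (0.993) and Grsf1 (0.992). The arrays fall into 2 ages, and the correlation measures mostly the step between them, so it is a description only. The fitted log2 ratios at 11 months were -1.39 for Timm44, -0.51 for Rfxank, -1.37 for Uqcrc2, -1.36 for Atp5d and -0.98 for Grsf1, smaller in size than the -2.66 of Pank1. Within the set, the same measure gave 0.96 between Ppcs and Coasy, 0.96 between Ppcs and Nudt19, 0.89 between Pank1 and Nudt19, and -0.70 between Pank1 and Pank3, over 8 arrays that share the 2 batches.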

How the data were processed

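Total RNA of brown adipose tissue was measured on 8 Agilent 2-colour arrays. Per the file headers, each deposited scanner table gives, for every spot, the mean intensity of the foreground and the median intensity of the background in either channel, read with Agilent Feature Extraction 10.5.1.1 (6 weeks) and 10.10.1.1 (11 months) on a design annotated to mm9, and a log10 ratio of Cy5 over Cy3 that the software had background-subtracted and dye-normalized. The deposited value table was read as log2 ratios, and the submitters' processing notes name limma. How it was corrected and normalized was not stated in the sources used here. Against the loess-normalized Cy5 over Cy3 ratios its columns correlated at 0.885 to 0.979 in size, with a sign that followed the knockout's dye, so it was read as knockout over wild type (column medians -0.051 to 0.085) and served as an alternative, as did the log10 ratio.

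Intensities were corrected with normexp (offset 50) and loess within each array under R 4.3.3 with limma 3.58.1 (tables were read with data.table version 1.17.8), with control and flagged spots (131 to 247 per array) at weight 0, and flagged spots left out. Replicate spots were averaged. Kept probes (26853 of 39429) had to be well above background in 4 or more of the 16 channel measurements and to have values on 3 or more arrays per age. The brightest kept probe stood for a gene. The linear model fitted the 2 ages separately and the dye jointly, with 5 residual degrees of freedom. Channel levels were scaled between arrays by Aquantile. Scripts were tested on simulated data. The number of arrays limits precision. Alternatives were median centring, other filters and offsets, the mean of a gene's probes, no dye coefficient, a replicate block and leaving out each array.

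Same-numbered replicates were not treated as paired in the main model. Across genes, the difference between the 2 arrays of 1 dye orientation correlated between the ages at 0.0929 (replicates 1 and 2) and -0.0611 (replicates 3 and 4). These low values cannot exclude a pairing, because the ages were run in separate batches. The genes, lists and markers were chosen with earlier results of these data known. Named genes were all 10 members, Prdm16, Ucp1 and Adipoq, up to 4 called genes of each other list with the largest change per comparison, and the 5 genes most correlated with Pank1. Adipoq, an adipocyte hormone gene, gave 0.40 ± 0.08 at 6 weeks and 1.49 ± 0.08 at 11 months. Its 6-week-old ratios were -0.19 and 0.20 with the knockout RNA in Cy3, and 0.84 and 0.77 with it in Cy5. Its 6-week call by limma (adjusted p = 0.0147) ended without a dye coefficient (adjusted p = 0.191). Of the remaining marker lists, the called genes, higher and lower, at 6 weeks and then at 11 months were 1 and 1, then 5 and 0 of 8 macrophage genes, and 0 and 3, then 0 and 0 of 6 endothelial genes. For liver, 1 of 5 genes was measured, Serpina1a, and was called higher at both ages (1.32 and 1.20). Its dye coefficient was 2.15, and 1 array of each age lay below 0 (-0.11 and -0.80). For kidney, 2 of 4 were measured and 1 fell at 11 months, and for erythrocytes 2 of 4 were measured with 0 called by limma and 0 at an unadjusted p below 0.05. Promoter sequences are from RefSeq. The sequence of 1 probe is not reported here.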

Additional observations from a re-analysis of the deposited data

Results flagged for a closer look

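The ratio of knockout over wild type differed between the ages, as the 11-month-old minus the 6-week-old log2 value in the limma model, for Nudt19 (-1.13), Ppcs (-0.90), Coasy (-0.71), Nudt7 (-0.63) and Pank2 (-0.51). The same test passed for Slc5a6 (1.22), Slc25a17 (-1.42), Ehhadh (-1.33), Amacr (-1.58), Abcd3 (-1.01), Acss1 (-1.92), Acsl5 (-3.68), Slc27a2 (-2.47), Acsm3 (-1.40), Ucp1 (-4.18) and Adipoq (1.09). Age and batch cannot be told apart in these differences.

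Single arrays stood apart from the other 3 of their age, by a gap to the nearest value that passed Dixon's critical share of the whole range: Coasy in 6-week-old array 3 (log2 ratio 0.11), Ehhadh in 6-week-old array 4 (0.21), Acss1 in 11-month-old array 4 (-2.02), Acsl5 in 11-month-old array 3 (-1.82) and Ucp1 in 11-month-old array 3 (-6.21). Chance marks about 1 in 20 groups of 4 in this way.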

How the results depend on the processing

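Signal over background limits Ppcdc and Vnn1, and 4 arrays per age limit all values. With median centring, in place of loess, the genes past the threshold among the 10 were 1 at 6 weeks (6 with loess; a description, since that contrast chose the set), 2 at 11 months (7) and 0 for the difference between ages (5 of 9), the called probes 2 (9), the other CoA genes 0 at 6 weeks (2) and 3 at 11 months (7), and the peroxisomal genes 5 at 6 weeks (11) and 5 at 11 months (13). Over all genes it called 948, 4912 and 552 genes at 6 weeks, at 11 months and for the difference, against 3520, 7544 and 3952. The scanner's log ratio called 3 of the 10 at 6 weeks and 2278 genes in all. Without a dye coefficient 3 differences, 1 other CoA gene at 6 weeks and 2518 differences over all genes were called. Without 6-week-old arrays 2, 3 and 4, chosen after seeing the data and leaving 1 array at 6 weeks, 2 differences, 1 other CoA gene, 4 peroxisomal genes and 3 synthetase genes at 6 weeks were called, with 1144 and 580 genes in all at 6 weeks and for the difference. Leaving out single arrays gave 2 to 7 of the 10 at 6 weeks, 5 to 7 at 11 months, 4 to 5 differences, 6 to 9 probes, 0 to 2 and 4 to 7 other CoA genes, 5 to 13 and 8 to 14 peroxisomal genes and 4 to 9 and 7 to 10 synthetase genes at 6 weeks and at 11 months. Over all genes these ranges were 1238 to 4278, 5027 to 7643 and 2118 to 3225. With the replicate number as a block, 5 of the 10 genes at 6 weeks, 7 at 11 months and 6 differences were called. Every 6-week count of the 10 genes in this section describes a setting and is no test of the set, since that contrast chose it. The block added Pank3 to the called differences (adjusted p = 0.0295), as did a dye coefficient for each age (adjusted p = 0.0176), and ended the 6-week call of Ehhadh (adjusted p = 0.059). Values near 0 changed sign. Vnn1 at 11 months became 0.0092 with median centring, 0.0457 with offset 0, and 0.1558 and 0.0478 without 11-month-old array 1 or 2 (lowest of these fits -0.1522). Its difference became -0.43 with the scanner's log ratio, -0.0598 with the deposited log2 table, -0.051, -0.0325 and -0.0222 without 6-week-old array 1, 2 or 4, and -0.0841 without 11-month-old array 3 (highest of these fits 0.362). Pank2 at 11 months became -0.0049 and -0.0109 without 11-month-old array 1 or 2 (highest 0.1307). The Ppcdc difference became 0.025 without 6-week-old array 4 (lowest -0.2226) and 0.0244 without 6-week-old arrays 2, 3 and 4, where the Pank3 difference became -0.0107. Ucp1 at 6 weeks became -0.0503 and -0.0847 without 6-week-old array 1 or 2 (highest 0.4103). The cause of these changes was not tested.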
